A study of Salmo salar with 13 samples.

Results

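The effect of photoperiod history in freshwater was read from the saccus vasculosus (SV) of Atlantic salmon by setting 2 SPLL FW libraries against 4 SP-hold FW libraries, 6 of the 13 libraries of the series. SPLL FW fish had 8 weeks of short photoperiod and then 8 weeks of constant light, whereas SP-hold FW fish stayed on short photoperiod for all 16 weeks, with 8 h of light per day. Juvenile parr of the Aquagen commercial strain were raised under continuous light before the experiment, and both groups were sampled in freshwater (FW) at the end of the 16 weeks. In the other 7 libraries, 4 from SPLL SW and 3 from SP-hold SW, fish of the same photoperiod groups had spent 24 h in a seawater (SW) tank under constant light. Fish came from duplicate tanks, and the tank of each library is not given in the labels and the sex of the fish was not determined, so p-values measure the spread between libraries, some of which share a tank. The authors had left out libraries with few reads, which is why SPLL FW holds 2. At sampling the SPLL FW fish differed from SP-hold FW fish in their light regime as well as in their photoperiod history, and the light at sampling and the developmental stage reached cannot be told apart.

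The SV is a neuroepithelial sac of the hypothalamic floor, found in many fishes, that opens into the third ventricle. Its characteristic coronet cells are in contact with the fluid of the ventricle. In masu salmon it has been described as a sensor of day length that acts through thyrotropin and the deiodinases, the enzymes that activate or inactivate thyroid hormone. In Atlantic salmon a winter-like short photoperiod followed by long days drives smoltification, the change of a stream-dwelling parr into a smolt that can live in seawater.

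Assigned reads ranged from 22401045 to 24840759 in SPLL FW and from 15346418 to 22430760 in SP-hold FW, with reads for 62912 to 65272 and for 64926 to 68275 of the 146780 transcripts. The lowest total belonged to SP-hold FW replicate 1. Ependymin and parvalbumin transcripts, products for which the SV is known, held between 6.13% and 11.5% of TPM, the length-scaled abundance that Salmon gives, in each of the 13 libraries. Replicate 3 of SPLL SW was unlike the remaining SW libraries, since only 54196 transcripts had any read in it where the others had 67445 to 70193. It is on neither side of the freshwater contrast. It still enters the filter, the scaling and the estimate of spread, which use all 13 libraries. Erythrocyte markers held 5.82% and 2.79% of TPM in SPLL FW, against 5.03%, 3.86%, 5.44% and 4.28% in SP-hold FW, so the ranges overlap. The pituitary hormone gh1, the only pituitary marker with a name here, had 1.41 and 103 TPM in SPLL FW replicates 1 and 2, against 11.8, 15.2, 5.96 and 2.85 TPM in SP-hold FW. SPLL FW replicate 2 therefore stands above every SP-hold FW library for this hormone and SPLL FW replicate 1 below all of them.

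Few transcripts differed past the threshold, and most of those were lower in SPLL FW. Of 46383 transcripts tested, 42 (0.0906%) differed at an FDR under 0.05 in an edgeR quasi-likelihood fit of all 13 libraries, 5 higher (0.0108%) and 37 lower (0.0798%) in SPLL FW than in SP-hold FW. Without adjustment, 4018 transcripts (8.66%) had a p under 0.05, of which 1334 (2.88%) were higher and 2684 (5.79%) lower. The SPLL FW and SP-hold FW libraries did not overlap for 10772 transcripts (23.2%), 5555 of them (12%) higher and 5217 (11.2%) lower in SPLL FW. The count of calls depended strongly on the method and on single libraries. DESeq2 called 1505, limma-voom called 1, and the newer quasi-likelihood method of edgeR and a fit of the 6 FW libraries alone each called 0, with 4331 and 4536 at an unadjusted p under 0.05. It was 274 without SPLL FW replicate 1, 177 without SPLL FW replicate 2 and 142 without SPLL SW replicate 3.

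The 42 fall into distinct sets. In 24 of them both SPLL FW libraries were at 0 reads, in 4 all 4 SP-hold FW libraries were at 0, and 14 had reads in both groups. A group of 2 libraries is at 0 throughout more easily than a group of 4. The 24 and the 4 therefore cannot be compared, nor can the totals of lower and higher calls that include them. Of the 14 with reads in both groups, 13 were lower in SPLL FW and 1 was higher, and 10 carry a gene name. All 13 lower transcripts lay below all 11 other libraries of the series in both SPLL FW libraries. This held for 2.93% of all tested transcripts, but the 13 were chosen as lower than 4 of these 11 libraries, so the shares cannot be compared. SPLL FW was thus the low group among all 4 conditions for these 13. The study had already grouped 12 of the 14 by their expression in these same libraries, so their listing there is not independent evidence.

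Several of the lower transcripts encode RNA-binding and splicing proteins. The transcript of hnrnpa1a (ENSSSAT00000210623, Ssal_v3.1 chromosome 15, gene at 92946882 to 92951819) encodes an hnRNP protein that binds nascent RNA and steers splice site choice. It had 63.3 and 60.1 CPM in SPLL FW, against 122, 124, 131 and 108 CPM in SP-hold FW. CPM values are reads scaled to the library total after its adjustment by TMM factors in edgeR. All 4 SP-hold FW libraries lay well above both SPLL FW libraries, and the log2 change was -0.97 (SE 0.125, FDR 0.0229). The transcript of tardbpb, which encodes TDP-43, another nuclear RNA-binding protein (ENSSSAT00000119476; chromosome 22, 11528370 to 11534397), had 72.9 and 72.5 CPM in SPLL FW, against 119, 118, 112 and 106 CPM in SP-hold FW. Its change was smaller, at -0.64 (SE 0.0914, FDR 0.0342), with nearly equal SPLL FW values. rsrp1, an arginine- and serine-rich nuclear protein named here by its RefSeq position (ENSSSAT00000107140; chromosome 9, 17517563 to 17520140), had 61.2 and 58.1 CPM in SPLL FW, against 105, 98.9, 112 and 90.8 CPM in SP-hold FW (log2 change -0.77, SE 0.0987, FDR 0.0229).

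The largest change among the 14 called transcripts with reads in both groups belonged to srrm1, a coactivator of splicing. Its transcript ENSSSAT00000218339 (chromosome 9, 17146995 to 17167313) had 2.3 and 1.57 CPM in SPLL FW, against 13, 10.2, 7.86 and 9.82 CPM in SP-hold FW. The log2 change was -2.40 (SE 0.35, FDR 0.0391). A more abundant transcript of the same gene, ENSSSAT00000106294, had 49 and 57.7 CPM in SPLL FW, against 90.7, 102, 97.8 and 95.8 CPM in SP-hold FW, and did not pass (-0.86, SE 0.143, FDR 0.0772). Both srrm1 transcripts were thus lower in every SPLL FW library, by different amounts. Reads of transcripts that share exons are divided between them by estimation, so a difference of a single transcript need not be a difference of the gene.

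Other lower transcripts have roles in protein modification, transcription and ribosome assembly. pcmtd2a, of a family related to the protein-L-isoaspartate methyltransferases, had the lowest p of the named transcripts (ENSSSAT00000138348; chromosome 15, 69806769 to 69816731). It had 66.7 and 65.3 CPM in SPLL FW, against 143, 123, 128 and 136 CPM in SP-hold FW (log2 change -1.003, SE 0.0987, FDR 0.00505). The Polycomb group protein SCML2 (ENSSSAT00000250186; chromosome 17, 33270367 to 33319311) had 28.6 and 28.1 CPM in SPLL FW, against 49.2, 48.2, 46.1 and 43.1 CPM in SP-hold FW (-0.72, SE 0.0933, FDR 0.0229). Spread within either group was small for both genes compared with the gap between the groups.

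gpn2, a GPN-loop GTPase (ENSSSAT00000184324; chromosome 5, 48038059 to 48052507), had 18.4 and 17.6 CPM in SPLL FW, against 41.8, 33.2, 32.3 and 39.4 CPM in SP-hold FW (-1.02, SE 0.142, FDR 0.032). pwp1, a WD repeat protein of the nucleolus (ENSSSAT00000049427; chromosome 7, 49683377 to 49693737), had 7.87 and 7.78 CPM in SPLL FW, against 14.9, 16.1, 15.7 and 13.5 CPM in SP-hold FW (-0.94, SE 0.133, FDR 0.0342). A transcript named only by its mouse match, 3425401B19Rik (ENSSSAT00000150305; chromosome 18, 5246768 to 5259435), had 4.81 and 4.56 CPM in SPLL FW, against 26.3, 13.9, 17.2 and 16.7 CPM in SP-hold FW (-1.98, SE 0.265, FDR 0.0262). SP-hold FW replicate 1 is the high library of that last transcript, and the remaining SP-hold FW libraries are still well above SPLL FW.

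Of the transcripts with no gene name, ENSSSAT00000228639 (chromosome 1, 90539179 to 90543014) was the most abundant to pass. It had 280 and 323 CPM in SPLL FW, against 641, 649, 604 and 558 CPM in SP-hold FW (log2 change -1.02, SE 0.135, FDR 0.0232). ENSSSAT00000160401 on chromosome 12 had 25.4 and 30.4 CPM in SPLL FW, against 54.1, 46.4, 51 and 44.6 CPM in SP-hold FW (-0.81, SE 0.115, FDR 0.0342). Both lie in the same cluster of the study as 7 of the 9 named transcripts that fell. The other 2, ENSSSAT00000221574 (20.6 and 20.1 CPM in SPLL FW, against 49, 43.1, 40 and 38.5 CPM in SP-hold FW) and ENSSSAT00000195260 (1.65 and 2.23 CPM in SPLL FW, against 6.33, 7.84, 7.95 and 8.82 CPM in SP-hold FW), are in no table of names. These unnamed transcripts are given because they passed, and were chosen after their values were seen.

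gsnb, a gelsolin that severs and caps actin filaments, was the only transcript with reads in both groups that passed as higher (ENSSSAT00000125665; chromosome 7, 44983071 to 44991681). It had 31.6 and 30.3 CPM in SPLL FW, against 16.5, 15.4, 14.1 and 11.8 CPM in SP-hold FW, a 2.14-fold difference (SE of the log2 change 0.143, FDR 0.0229). The SPLL FW libraries were both high and close together.

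**Figure D1:**
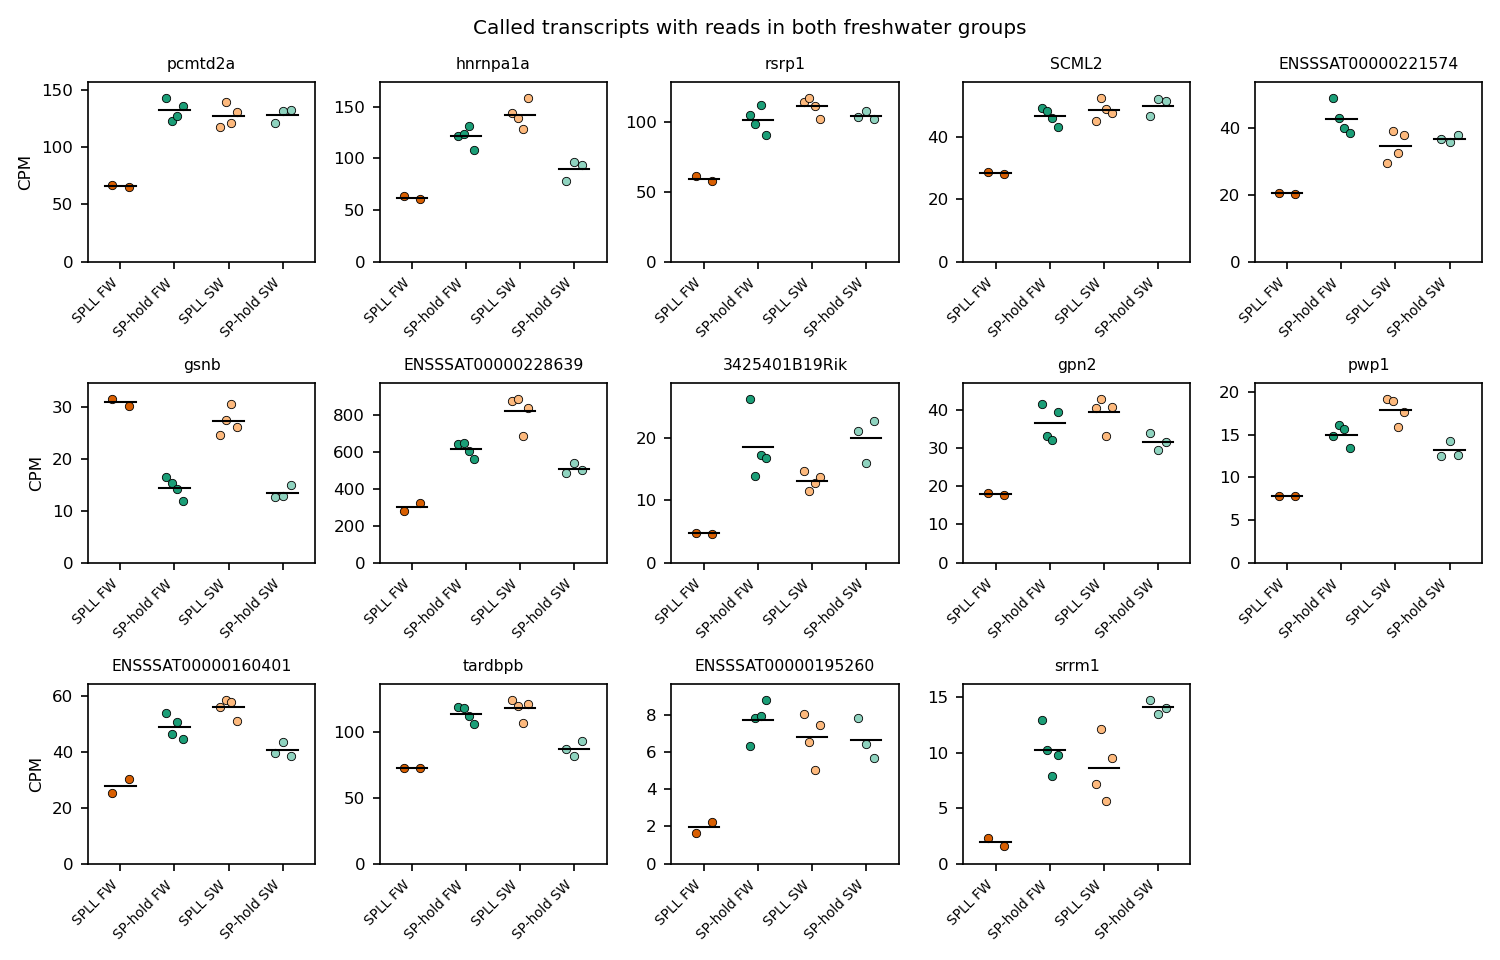
CPM in each library (points) with group means (lines) for the 14 transcripts past an FDR of 0.05 in SPLL FW against SP-hold FW that had reads in both groups, with the SW groups beside them. The 2 SPLL FW points lie below every other library in 13 panels and above both SP-hold groups for gsnb.

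The 28 other called transcripts had no read in a whole freshwater group. None of them is in the annotation used here, so they have identifiers but no gene names, and all 28 had reads in all 7 SW libraries. The lowest p of the 24 at 0 in SPLL FW belonged to ENSSSAT00000094621, with 0 and 0 CPM in SPLL FW against 8.12, 4.78, 5.27 and 5.91 CPM in SP-hold FW (FDR 0.0037). Set against the floor of 3 counts over the 2 SPLL FW libraries, that is at least 82.4-fold lower. ENSSSAT00000115860 had 0 and 0 CPM in SPLL FW against 16.6, 13.7, 19.4 and 13.2 CPM in SP-hold FW, at least 215-fold lower (FDR 0.00483).

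The widest gap, chosen here after its values were seen, was that of ENSSSAT00000019665, a transcript of 719 bases with 0 and 0 CPM in SPLL FW against 444, 546, 409 and 167 CPM in SP-hold FW. In the SW libraries it ranged from 39.6 to 626 CPM. The other 23 had mean SP-hold FW levels of 1.34 to 15.7 CPM, and the median over the 24 was 3.19 CPM, where the median over all tested transcripts in the freshwater libraries was 5.33 CPM. In the opposite direction, ENSSSAT00000194100 had 2.35 and 2.8 CPM in SPLL FW and no read in the 4 SP-hold FW libraries, at least 67.6-fold higher (FDR 0.00483). ENSSSAT00000067840 had 2.9 and 1.23 CPM in SPLL FW and no read in SP-hold FW, at least 54.3-fold higher (FDR 0.0114).

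Among all tested transcripts, 821 were at 0 in both SPLL FW libraries and 45 in all 4 SP-hold FW libraries. These counts cannot be compared, since fewer libraries are all at 0 more easily. Of the 40 at 0 in SPLL FW that had reads in all 11 other libraries, 24 were called, and of the 5 of that kind for SP-hold FW, 4 were called. No transcript at 0 in a whole freshwater group that was also at 0 in another library was called. Reads in every SW library thus went with being called and are no separate trait of the 28. A 0 here is an estimate by read assignment among transcripts that share sequence, and the files give no measure of its uncertainty. A shift of reads between transcripts and a change of the gene cannot be told apart for these 28.

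**Figure D2:**
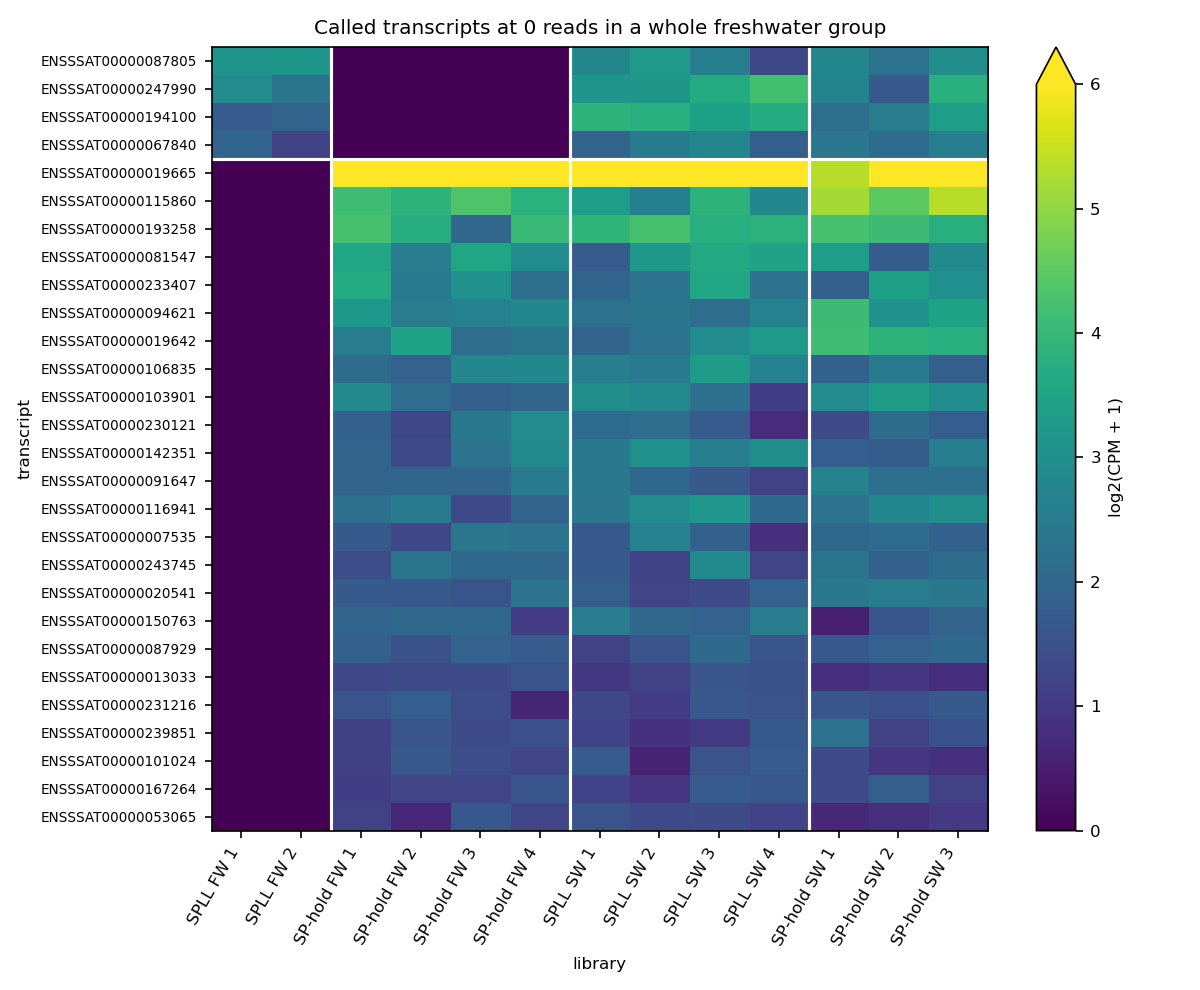
log2(CPM + 1) by library (columns) for the 28 called transcripts at 0 reads in all SP-hold FW libraries (upper 4 rows) or in both SPLL FW libraries (lower 24 rows), ordered by their mean CPM in the other freshwater group. The colour scale ends at 6, and the dark block of 0 reads is confined to a single freshwater group in each row, and all SW columns hold reads. Transcripts of this kind that were also at 0 in another library were not called.

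The freshwater libraries also differed by transcript length, a pattern that touches every gene group below. The median log2 change was 0.34 for the 292 transcripts of up to 500 bases, 0.15 for those of 1000 to 2000 bases, -0.06 for those of 3000 to 4000 bases and -0.27 for the 7463 transcripts over 6000 bases. The trend was not particular to freshwater. For SPLL SW minus SP-hold SW the median was 0.56 up to 500 bases and -0.22 over 6000 bases. SPLL SW replicate 3 deviated most there, with medians of 0.82 and -0.35 from the mean of the 13 libraries. The other SPLL SW libraries lay at -0.13 to 0.18 and at 0.14 to 0.16. SP-hold SW lay at -0.48 to -0.14 and at 0.27 to 0.34. Transcripts with an unadjusted p under 0.05 had a median length of 2115.5 bases where higher and 4510.5 bases where lower in SPLL FW, against 3228 over all tested. Among libraries, the median deviation of the shortest transcripts was 0.33 and 0.40 in SPLL FW, against -0.15, -0.07, 0.10 and 0.17 in SP-hold FW. That of the longest was -0.04 and -0.12 in SPLL FW, against 0.27, 0.20, 0.03 and 0.22 in SP-hold FW. The groups do not overlap at either end. Within SP-hold FW, replicates 1 and 2 rose with length, replicate 4 was nearly level between its ends, and replicate 3 fell slightly.

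When this trend with length was removed in each library, a step added after seeing the data, 43 transcripts were called, 8 higher and 35 lower. Of the 42 calls, 35 were among them, including 10 of the 14 with reads in both groups. SCML2 (log2 change -0.59, FDR 0.165) and pwp1 (-0.85, FDR 0.0597) were not, nor was ENSSSAT00000160401 (-0.63, FDR 0.302). Abundance moved with the change as well: the median log2 change was -0.24 for transcripts of up to 1 CPM and 0.16 for those over 100 CPM. The trends were measured across libraries, and what produced them was not tested.

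**Figure D3:**
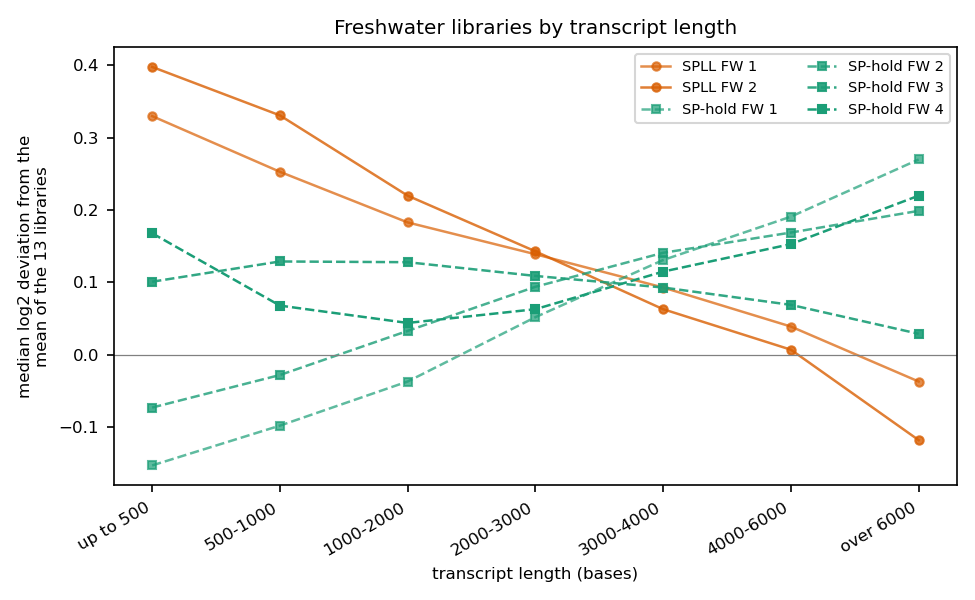
Median log2 deviation of each freshwater library from the mean of the 13 libraries, by transcript length class in bases. The SPLL FW libraries (solid) fall from 0.33 and 0.40 for the shortest to -0.04 and -0.12 for the longest transcripts, outside the range of the SP-hold FW libraries (dashed) at both ends.

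Names were available for 1304 tested transcripts, mostly abundant ones and those the study selected, of which 10 were called (0.767%), 1 higher (0.0767%) and 9 lower (0.69%). The 1010 named transcripts outside the clusters of the study had a median length of 1299 bases and none was called by edgeR. At an unadjusted p under 0.05, 122 of them (12.1%) were higher and 9 (0.891%) lower, and without the trend in length these counts were 69 and 25. Libraries did not overlap for 457 (45.2%) as higher and for 27 (2.67%) as lower. The median log2 change of the 1010 was 0.23, and 0.07 without the trend in length. Their lean towards higher values in SPLL FW was therefore smaller without the trend in length. The gene groups below are given by these unadjusted counts and their medians, beside the shares over all tested transcripts (2.88% higher, 5.79% lower, with 12% higher and 11.2% lower without overlap) and the median over all tested transcripts of -0.02.

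Extracellular matrix transcripts had the highest median among the 27 gene lists with 5 or more tested transcripts in the edgeR fit, though not without the trend in length, where the glucocorticoid response had 0.67. Of 13 tested, 0 were called by edgeR, 8 were higher and 0 lower at an unadjusted p under 0.05, and 9 were higher without overlap, against 12% of all tested transcripts and 45.2% of the named ones outside the clusters. The median log2 change was 0.61, and 0.51 without the trend in length, where 7 of the 13 were higher at an unadjusted p under 0.05. Of the 13, 4 had been placed in clusters by the study on these libraries.

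spon2b, a secreted spondin of the matrix, had 15.9 and 16.8 CPM in SPLL FW, against 7.67, 8.96, 7.81 and 7.5 CPM in SP-hold FW (log2 change 1.03, SE 0.16, FDR 0.0558). SPARC, a secreted collagen-binding glycoprotein, is encoded by a pair of loci. SPRC on chromosome 5 had 1347 and 1436 CPM in SPLL FW, against 840, 954, 914 and 754 CPM in SP-hold FW (0.69, SE 0.137, FDR 0.164), and sparc on chromosome 9 had 934 and 923 CPM in SPLL FW, against 540, 634, 629 and 498 CPM in SP-hold FW (0.69, SE 0.15, FDR 0.213). The copies gave nearly the same change. A biglycan transcript (bgn, a small matrix proteoglycan) had 20.3 and 13 CPM in SPLL FW, against 7.03, 5.9, 5.7 and 6.81 CPM in SP-hold FW (1.39, SE 0.261, FDR 0.129). Matrix Gla protein (mgp), an inhibitor of calcification, had 251 and 175 CPM in SPLL FW, against 66.7, 122, 87.1 and 104 CPM in SP-hold FW (1.17, SE 0.474, FDR 0.526). For each of these genes both SPLL FW libraries lay above all 4 SP-hold FW libraries, without passing the threshold.

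Together the 13 matrix transcripts held 0.31% and 0.271% of TPM in SPLL FW, against 0.222%, 0.257%, 0.221% and 0.154% in SP-hold FW (exact two-sided permutation p = 0.133). That is the smallest p that 2 against 4 libraries can give. c1qtnf6, a secreted protein of the C1q and tumour necrosis factor family outside this group, was also higher in both SPLL FW libraries, with 26.8 and 27.8 CPM in SPLL FW against 15.1, 16.7, 14.4 and 14.7 CPM in SP-hold FW (0.84, SE 0.134, FDR 0.0636).

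Products of the SV itself were also measured. The 6 tested ependymin and parvalbumin transcripts, of which ependymins are secreted glycoproteins of brain fluids and parvalbumin a calcium buffer, held 9.37% and 11.5% of TPM in SPLL FW, against 7.45%, 9.08%, 8.82% and 6.13% in SP-hold FW (exact two-sided permutation p = 0.133). As a share of reads not divided by length the groups overlapped (exact two-sided permutation p = 0.267). None of the 6 was called, 2 were higher at an unadjusted p under 0.05, and their median log2 change was 0.36.

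Ependymin comes from an epd locus on chromosome 13 (84007139 to 84010008) and another on chromosome 4 (50798147 to 50810048). ENSSSAT00000133334 of chromosome 13 had 52320 and 66720 TPM in SPLL FW, against 35500, 44630, 39890 and 27640 TPM in SP-hold FW (log2 change 0.97, SE 0.391, FDR 0.519). The smaller transcript of that locus, ENSSSAT00000133331, had 2089 and 2768 TPM in SPLL FW, against 869, 1192, 1397 and 842 TPM in SP-hold FW (1.44, SE 0.406, FDR 0.303). Both lay above all SP-hold FW libraries. The log2 changes come from the edgeR fit to TMM-scaled counts and not from the TPM values beside them. The chromosome 4 transcript ENSSSAT00000082883 overlapped, with 24880 and 29150 TPM in SPLL FW against 22250, 26960, 28820 and 17950 TPM in SP-hold FW. Whether the loci differed from each other was not tested. The parvalbumin transcript prvt ENSSSAT00000091084 overlapped as well, with 10370 and 10840 TPM in SPLL FW against 9835, 10480, 11200 and 9260 TPM in SP-hold FW. A further transcript of that gene, ENSSSAT00000001133, was lower in TPM, with 3975 and 5427 TPM in SPLL FW against 5994, 7449, 6847 and 5552 TPM in SP-hold FW, at a log2 change of -0.18 in edgeR (unadjusted p = 0.672). Of the 6, 4 lay higher and 0 lower without overlap in CPM. Among the named transcripts outside the clusters, where all 6 belong, 45.2% lay higher and 2.67% lower, so the 4 are not set apart.

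In the edgeR fit, transcripts of lipid handling had a higher median than the named transcripts outside the clusters (0.23), and glia markers a slightly lower one. Without the trend in length, where the named ones had 0.07, both medians were higher. None of either list was called. Of 14 tested transcripts of sterol and lipid metabolism 4 were higher and 0 lower at an unadjusted p under 0.05, with a median log2 change of 0.53 (0.33 without the trend in length). Of 13 glia and tanycyte markers, 4 were higher and 0 lower, with a median of 0.20 before and after removal of the trend. The lists share 3 of these 4. Of the 13 glia markers, 6 lay higher and 1 lower without overlap, against 45.2% and 2.67% of the named ones outside the clusters. Apolipoprotein E (apoeb), which carries cholesterol between glia and neurons, had 3552 and 3874 CPM in SPLL FW from its chromosome 5 locus, against 1712, 2070, 2318 and 1749 CPM in SP-hold FW (0.92, SE 0.222, FDR 0.248). From the chromosome 2 locus apoeb had 2564 and 2053 CPM in SPLL FW, against 1296, 1450, 1387 and 987 CPM in SP-hold FW (0.85, SE 0.259, FDR 0.346). fabp7b, which binds fatty acids in radial glia, averaged 430 ± 54.7 CPM in SPLL FW (SD, n = 2), against 220, 245, 299 and 265 CPM in SP-hold FW (0.74, SE 0.18, FDR 0.248). Markers such as vim, gpm6aa and sox2 had no p under 0.05. In bulk tissue, a larger share of a cell type and more RNA per cell cannot be told apart.

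Transcripts of the endoplasmic reticulum translocon and its chaperones, the entry machinery for secreted proteins, leaned the same way. Of 32 tested, 7 were higher and 0 lower at an unadjusted p under 0.05, 26 were higher without overlap (12% of all tested, 45.2% of the named ones outside the clusters), and the median log2 change was 0.39 (0.22 without the trend in length). fkbp11, a prolyl isomerase of secretory cells, had 19.3 and 19.9 CPM in SPLL FW, against 11.1, 12.8, 12.2 and 9.61 CPM in SP-hold FW (0.78, SE 0.184, FDR 0.247). manf, a secreted stress-responsive factor of this compartment, had 45.2 and 49.9 CPM in SPLL FW, against 31.4, 33.5, 30.9 and 33.9 CPM in SP-hold FW (0.55, SE 0.134, FDR 0.248). Outside this list, rbp4 of chromosome 19, the carrier of retinol, had 585 and 584 CPM in SPLL FW, against 228, 315, 375 and 297 CPM in SP-hold FW (0.94, SE 0.24, FDR 0.265). It belongs to 7 thyroid hormone and retinoid carriers, of which 1 was higher and 0 lower at an unadjusted p under 0.05. The median of those 7 was 0.26, and 0.05 without the trend in length. For fkbp11, manf and rbp4 both SPLL FW libraries lay above all of SP-hold FW, and the study had placed all 3 in the fourth of its clusters.

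Ribosomal proteins and the respiratory chain have short transcripts, and their medians were near 0 without the trend in length. The 171 ribosomal protein transcripts had a median log2 change of 0.31 at a median length of 711 bases, with 8 higher and 0 lower at an unadjusted p under 0.05. Without the trend in length the median was 0.03, with 5 higher and 5 lower. The 64 transcripts of the respiratory chain and ATP synthase had a median of 0.36 at 764.5 bases, and 0.10 without the trend. None of either group was called. Ribosomal protein genes have near-identical copies in the salmon genome, so values of single members are uncertain.

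Chromatin coregulators lay at the other end. Of 21 tested, 0 were called, 10 were lower and 0 higher at an unadjusted p under 0.05, and the median log2 change was -0.48. These are long transcripts, with a median of 7807 bases, and without the trend in length the median was -0.18 and 5 were lower. The study had placed 19 of the 21 in its clusters. The acetyl-lysine reader brd2a had 15.7 and 14.4 CPM in SPLL FW, against 32.2, 25.4, 24.9 and 29.6 CPM in SP-hold FW (-0.90, SE 0.149, FDR 0.0772), and -0.59 without the trend. The chromatin remodeller chd2 had 49.8 and 57.4 CPM in SPLL FW, against 83.8, 83.6, 83 and 77.2 CPM in SP-hold FW (-0.61, SE 0.107, FDR 0.0924), and -0.21 without the trend. jarid2b, a Polycomb repressive complex subunit of 3492 bases, had 14.3 and 13.5 CPM in SPLL FW, against 33.8, 23.9, 20.7 and 22.8 CPM in SP-hold FW (-0.86, SE 0.218, FDR 0.264), and stayed at -0.80. Removal of the trend thus moved these values by different amounts.

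**Figure D4:**
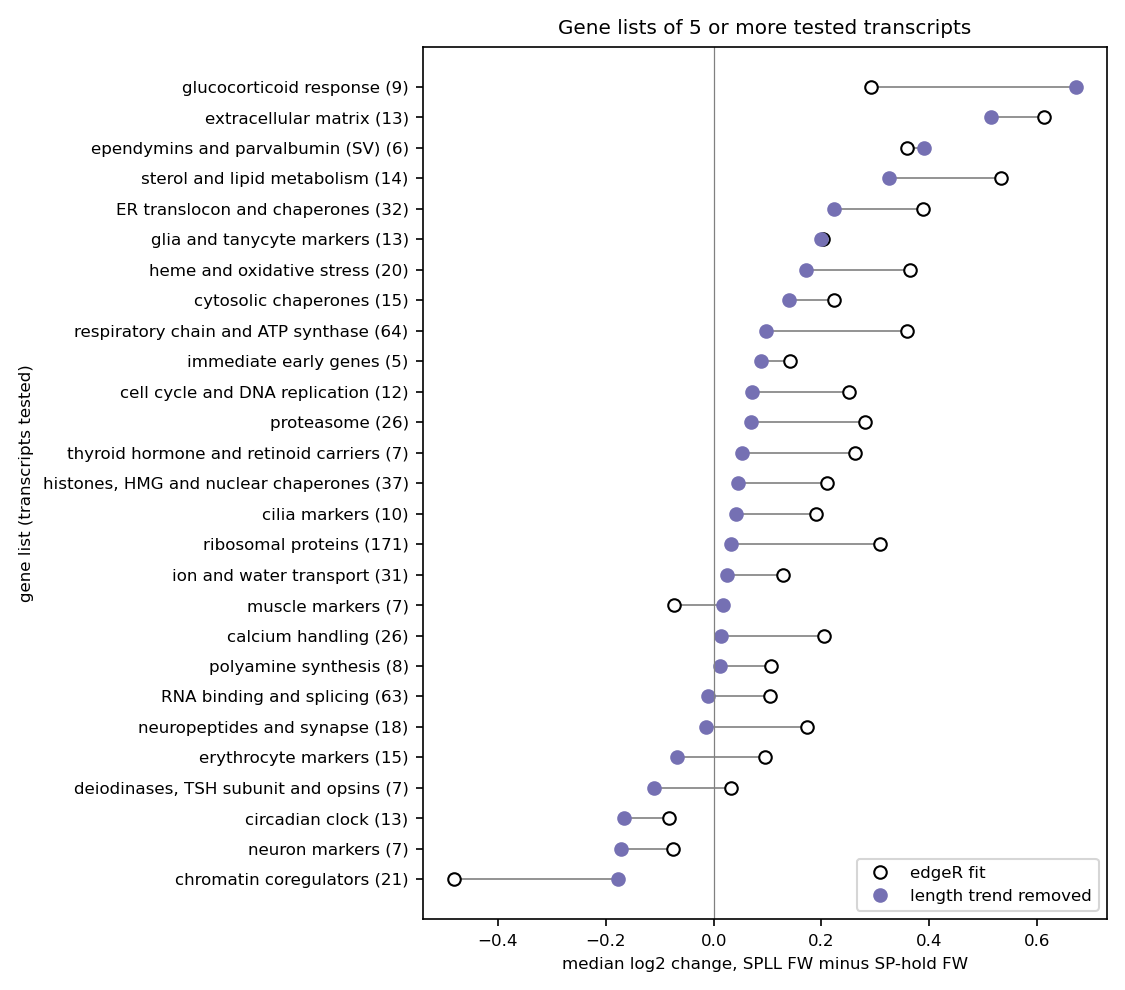
Median log2 change of SPLL FW minus SP-hold FW for the 27 gene lists with 5 or more tested transcripts (number in brackets), from the edgeR fit (open) and after the trend with transcript length was removed (filled). Ribosomal proteins move from 0.31 to 0.03 and chromatin coregulators from -0.48 to -0.18, whereas extracellular matrix stays at 0.51 or more.

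RNA binding and splicing, the group with 3 called members (hnrnpa1a, tardbpb and srrm1), had a median log2 change near 0. Of 63 tested, 3 were called lower and 0 higher, where 0.0798% of all tested transcripts and 0.69% of the named ones were called lower. The study had placed 10 of the 63 in its clusters on these libraries, the 3 called ones among them. Of the 1010 named transcripts outside the clusters, 0 were called. At an unadjusted p under 0.05, 7 of the 63 were higher and 9 lower, and their median log2 change was 0.10. Without the trend in length 3 were higher and 10 lower, with a median of -0.01. The 1010 named transcripts outside the clusters then had 69 higher and 25 lower.

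The glucocorticoid response, the genes switched by cortisol, included a wide difference close to the threshold, that of Fkbp5, a co-chaperone of the glucocorticoid receptor. Its transcript ENSSSAT00000150909 (chromosome 12, 57656136 to 57708497) had 5.36 and 5.27 CPM in SPLL FW, against 0.959, 0.517, 0.383 and 1.16 CPM in SP-hold FW, a 7.03-fold difference that lay just outside the threshold (log2 change 2.81, SE 0.436, FDR 0.0558). Without the trend in length it passed (2.93, FDR 0.03). A further transcript of the same gene, ENSSSAT00000150897, had 3.36 and 4.37 CPM in SPLL FW, against 1.02, 0.69, 1.44 and 2.85 CPM in SP-hold FW (1.36, SE 0.476, FDR 0.424). The fkbp5 transcript of chromosome 22 had 4.36 and 3.27 CPM in SPLL FW, against 1.98, 1.77, 2.11 and 2.69 CPM in SP-hold FW (0.83, SE 0.345, FDR 0.534). These 3 had both SPLL FW libraries above SP-hold FW, at low levels.

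klf9, a transcription factor induced by glucocorticoids and by thyroid hormone, had 4.31 and 6.22 CPM in SPLL FW, against 2.88, 3.75, 3.07 and 3.96 CPM in SP-hold FW (0.62, SE 0.253, FDR 0.523). Of the 9 tested transcripts of the group 4 were higher and 0 lower at an unadjusted p under 0.05, with a median of 0.29. Without the trend in length the median was 0.67, with 3 higher and 0 lower. Summed, the 9 held 0.00969% and 0.009344% of TPM in SPLL FW, against 0.01053%, 0.01085%, 0.01087% and 0.007788% in SP-hold FW. These ranges overlapped, so the sum was not raised. The group is small, 8 of its 9 members come from the clusters of the study, and other members, TSC22D3, per1b and foxo1a among them, had no p under 0.05.

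Clock and cilia transcripts gave few changes. Of 13 circadian clock transcripts, 2 were lower and 0 higher at an unadjusted p under 0.05, both nr1d4b, of the Rev-erb family of clock repressors. The chromosome 22 transcript had 8.82 and 7.59 CPM in SPLL FW, against 9.53, 12.6, 17.7 and 16.5 CPM in SP-hold FW (-0.78, SE 0.25, FDR 0.38). Fish under constant light have no light-dark transition, and the hour of sampling is not given in the sources used here. Of 10 cilia markers, the axonemal proteins Cfap70 and gas8 were lower. Cfap70 had 12.3 and 9.49 CPM in SPLL FW, against 26, 19.9, 21.3 and 23.2 CPM in SP-hold FW (-1.05, SE 0.162, FDR 0.0542). gas8 had 9.22 and 11.5 CPM in SPLL FW, against 21.4, 19.7, 22.2 and 18.5 CPM in SP-hold FW (-0.98, SE 0.166, FDR 0.0805). The remaining 8 had no p under 0.05, and the median of the list was 0.19.

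ppp1r1b, which encodes the dopamine- and cAMP-regulated phosphatase inhibitor DARPP-32, led the neuropeptide and synapse list with 139 and 154 CPM in SPLL FW, against 86.2, 81.6, 89.4 and 78.8 CPM in SP-hold FW (0.81, SE 0.126, FDR 0.0558). Of the 18 transcripts on that list, 4 were higher and 4 lower at an unadjusted p under 0.05. SNPH, the mitochondrial docking protein of axons, had 8.62 and 4.18 CPM in SPLL FW, against 28, 18, 15.9 and 19.9 CPM in SP-hold FW (-1.68, SE 0.315, FDR 0.129). No transcript of the dopaminergic marker list has a name here, so those markers were not analysed.

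Other large differences among named transcripts also missed the threshold. The phosphatase cdc14b had 3.36 and 4.46 CPM in SPLL FW, against 13.1, 11.8, 8.38 and 15.4 CPM in SP-hold FW (-1.64, SE 0.261, FDR 0.0638). The ubiquitin ligase Dtx3l had 25.2 and 13.9 CPM in SPLL FW, against 65.1, 49.8, 78.8 and 55 CPM in SP-hold FW (-1.67, SE 0.276, FDR 0.0761). ogt.2, an O-GlcNAc transferase, had 14.9 and 15.1 CPM in SPLL FW, against 42.7, 38.9, 26.2 and 33.8 CPM in SP-hold FW (-1.24, SE 0.206, FDR 0.0761). In each of these the highest SPLL FW library was below the lowest SP-hold FW library. Lack of overlap was a condition of choosing them, so it is not a result about them. Over all tested transcripts, 11.2% were lower without overlap.

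The deiodinases and gpha2, parts of the photoperiod pathway described in other fishes, were measured at low levels. The paper reports that the thyrotropin beta subunits, the alpha subunit glha1 and the thyrotropin receptor were undetectable. No values for those are given here. Dio3, the deiodinase that inactivates thyroid hormone, had 9 and 8.62 TPM in SPLL FW, against 5.99, 6.65, 5.63 and 1.7 TPM in SP-hold FW (log2 change 1.12, SE 0.468, FDR 0.543). Both SPLL FW libraries were above SP-hold FW, whose replicate 4 was low. The log2 change is again from the edgeR fit to counts. dio2, the activating deiodinase, had 0.713 and 0.432 TPM in SPLL FW from its chromosome 9 locus, against 0.408, 0.622, 0.972 and 0.676 TPM in SP-hold FW. From its chromosome 1 locus, which fell below the filter and was not tested, dio2 had 2.01 and 1.53 TPM in SPLL FW, against 0.804, 0.83, 1.68 and 0.759 TPM in SP-hold FW. Ranges overlapped at both dio2 loci. The glycoprotein hormone subunit gpha2, also below the filter, had 0.137 and 0 TPM in SPLL FW, against 0.321, 1.67, 1.26 and 1 TPM in SP-hold FW.

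Opsins, the light-absorbing receptors, gave no call. The retinal isomerase-like opsin rgrb of chromosome 19 had 18.6 and 16.1 TPM in SPLL FW, against 18.4, 20.9, 18.5 and 14.9 TPM in SP-hold FW. opn8b had 1.4 and 1.04 TPM in SPLL FW, against 3.36, 2.96, 2.14 and 1.92 TPM in SP-hold FW, and so was lower without overlap (unadjusted p = 0.107 in edgeR). opn8a had 10.4 and 6.86 TPM in SPLL FW, against 10.1, 17.6, 7.24 and 7.01 TPM in SP-hold FW, and Tmtopsin3a had 2.2 and 1.25 TPM in SPLL FW, against 2.05, 1.65, 1.29 and 1.49 TPM in SP-hold FW. Both of these overlapped. Over the 7 tested deiodinase and opsin transcripts, not all of them described above, the median log2 change was 0.03. At an unadjusted p under 0.05, 1 was higher and 0 lower. In CPM 2 of the 7 lay higher and 1 lower without overlap, against 12% and 11.2% of all tested transcripts.

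Marker lists of other cell types differed in how they lay. The 4 endothelium markers held 0.00248% and 0.00231% of TPM in SPLL FW, against 0.00355%, 0.00351%, 0.00297% and 0.00258% in SP-hold FW (exact two-sided permutation p = 0.133), a ratio of the means of 0.761. The 7 muscle markers held 0.0459% and 0.0455% of TPM in SPLL FW, against 0.0639%, 0.0608%, 0.0546% and 0.0465% in SP-hold FW (exact two-sided permutation p = 0.133), a ratio of 0.81. Both shares of TPM were thus small and lower without overlap, and their part in the other differences was not tested. Each gap lay mostly in a single long transcript. The endothelial stab2 averaged 11.7 TPM in SPLL FW and 19.5 TPM in SP-hold FW. Atp2a1 on the muscle list averaged 110 TPM in SPLL FW and 199 TPM in SP-hold FW. With the erythrocyte markers left out of the total, the muscle shares overlapped (exact two-sided permutation p = 0.267). They were then 0.0487% and 0.0468% in SPLL FW, with 0.0485% in SP-hold FW replicate 4. As a share of reads not divided by length, the muscle markers stayed lower without overlap. None of the 15 erythrocyte markers had a p under 0.05, and their median log2 change was 0.10. Of 4 endothelium markers, 1 was higher and 1 lower at an unadjusted p under 0.05, and 1 lay higher and 3 lower without overlap. The lower was the scavenger receptor stab2, with 99.4 and 107 CPM in SPLL FW against 144, 148, 134 and 143 CPM in SP-hold FW (-0.47, SE 0.0936, FDR 0.166), while the change was -0.15 without the trend in length of its 9581 bases. The higher was PLAT, a plasminogen activator, with 15.6 and 15.3 CPM in SPLL FW against 9.34, 8.19, 9.01 and 10.8 CPM in SP-hold FW (0.73, SE 0.1875, FDR 0.266). The median of the 4 endothelium markers was -0.24. Without the trend in length it was 0.07, with 1 higher and 0 lower at an unadjusted p under 0.05. Of 7 muscle markers, 2 were higher and 1 lower. The calcium pump Atp2a1 had 785 and 901 CPM in SPLL FW, against 1276, 1408, 1193 and 1322 CPM in SP-hold FW (-0.63, SE 0.149, FDR 0.247), whereas tcap had 10.4 and 20.6 CPM in SPLL FW, against 3.77, 8.49, 6.71 and 6.39 CPM in SP-hold FW (1.29, SE 0.356, FDR 0.288). Without the trend in length, Atp2a1, of 9163 bases, had a change of -0.32 and tcap of 1.19. The muscle markers thus pointed in opposite directions.

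The same photoperiod contrast was read in the 7 libraries taken after 24 h in seawater, which share no library with the freshwater contrast. There 1411 transcripts (3.04%) passed, 657 higher (1.42%) and 754 lower (1.63%) in SPLL SW than in SP-hold SW. Of the 42 freshwater calls, 7 also passed in seawater (16.7% of the 42 and 0.496% of the 1411), 3 of them in the same direction. The difference between the contrasts, tested as an interaction, passed for 36 of the 42 and for 105 transcripts (0.226%) in all. The interaction contains the freshwater contrast by which the 42 were chosen, so the 36 cannot be compared with the share over all transcripts. Without SPLL SW replicate 3, the interaction passed for 292 transcripts and the seawater contrast for 1002.

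hnrnpa1a was lower in SPLL FW than in SP-hold FW but higher in SPLL SW than in SP-hold SW (log2 change after seawater 0.67, FDR 0.0149; interaction FDR 0.00555). tardbpb did likewise (0.44, FDR 0.0244; interaction FDR 0.00723), as did ENSSSAT00000228639 (0.70, FDR 0.0173) and ENSSSAT00000160401 (0.46, FDR 0.0379). For pcmtd2a the change after seawater was -0.01 (FDR 0.974; interaction FDR 0.0159) and for rsrp1 it was 0.09 (FDR 0.691; interaction FDR 0.0327). The first 4 thus had opposite signs in the contrasts. Fkbp5 ENSSSAT00000150909 had a log2 change of -1.19 after seawater (FDR 0.12), against 2.81 in freshwater, with an interaction FDR of 0.0292.

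gsnb was higher in SPLL in both waters, 2.14-fold in freshwater and by 1.02 on the log2 scale in seawater (FDR 0.0104; interaction FDR 0.963). The matrix protein spon2b gave 1.03 and 0.71, and c1qtnf6 gave 0.84 and 0.59, with FDRs of 0.0371 and 0.0374 after seawater. Both belong, with gsnb, to the 24 transcripts of the fourth cluster of the study, which it formed on these libraries. In freshwater 1 of the 24 was called higher and 0 lower, 16 had an unadjusted p under 0.05 as higher, and their median log2 change was 0.70, against 1.00 after seawater. Of the first cluster, which holds 64 transcripts, 9 were called lower and 0 higher, where 0.0798% of all tested transcripts were called lower. Members of every cluster were selected by the study for differences among these same groups, so the shares cannot be compared. At an unadjusted p under 0.05, 30 of the 64 were lower and 10 higher, and the median was -0.34, against 0.04 after seawater. The second cluster, of 187, had 2 called lower and a median of -0.23, against -1.19 after seawater. The remaining clusters had no freshwater call by edgeR, with 4 higher and 0 lower at an unadjusted p under 0.05 in the third, and 6 higher and 5 lower in the last.

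**Figure D5:**
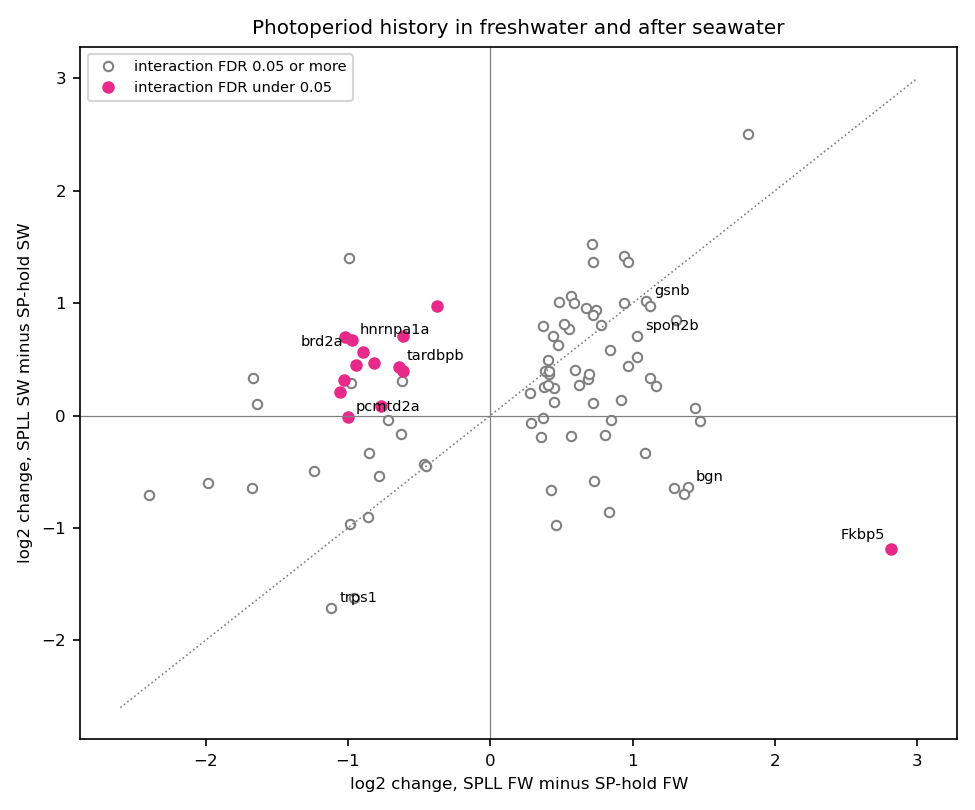
log2 change of SPLL FW minus SP-hold FW (x axis) against SPLL SW minus SP-hold SW (y axis) for the 91 transcripts followed by rule that had reads in both freshwater groups and an unadjusted p under 0.05 in freshwater. The 14 filled points have an interaction FDR under 0.05, 13 of them lower in SPLL FW, and gsnb lies near the dotted line of equal change. All points were chosen by the freshwater contrast, which the interaction contains.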

How the data were processed

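SV libraries (TruSeq stranded mRNA) were sequenced single-end on an Illumina HiSeq. The authors trimmed reads with cutadapt and made the deposited estimated counts (expected counts) and TPM values with Salmon (1.1.0), correcting for GC bias, against the transcripts of Ssal_v3.1. Reads shared by near-identical transcripts, frequent in the duplicated salmon genome, are divided by estimation, whose error was not analysed here. Effective length was not used in the fits to counts and entered only through the TPM values of Salmon.

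Counts were rounded, and 46383 of 146780 transcripts passed a median CPM filter of 0.77 and entered edgeR (4.0.16, R 4.3.3) with TMM factors, glmQLFit and glmQLFTest, 4 group means over all 13 libraries and 9 residual degrees of freedom. With 2 libraries, SPLL FW is assumed to vary like the other groups. SE is the size of the log2 change over the square root of F, and FDR is the Benjamini-Hochberg adjusted p. CPM values use TMM-scaled totals, and TPM values are as Salmon gave them. Shares of TPM were compared by exact two-sided permutation. A group at 0 was given a floor of 3 counts over the group. The pipeline was tested on simulated data.

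Names and positions come from annotation columns of the study's supplementary tables, with 31 names from RefSeq by position. Named in the text are called transcripts with a name, the largest non-overlapping changes at a mean of at least 5 CPM, up to 4 members of each list by lowest p, photoperiod and SV genes and cluster members of the study, and up to 2 unnamed transcripts per direction, with exceptions stated. Members and lists were chosen with earlier results of these data known. DESeq2 (1.42.0), limma-voom (3.58.1), RLE factors, other filters, the freshwater libraries alone, a replicate block and leaving out each library were also tried. The newer quasi-likelihood method, library totals without TMM factors and removal of a length trend were added after seeing the data.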

Additional observations from a re-analysis of the deposited data

Results flagged for a closer look

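Among 122 groups of 4 libraries examined, 7 had a library far from the others by Dixon's criterion, where chance gives about 5%. In SP-hold FW, chd2 had 77.22 CPM in replicate 4 against 83.02 to 83.83 CPM in the other 3, and the acetylcholine receptor subunit chrne had 19.18 CPM in replicate 2 against 12.22 to 12.88 CPM. Dio3 had 0.7917 CPM in replicate 4 against 2.11 to 2.327 CPM. In replicate 1, the library of lowest depth, ENSSSAT00000103013 had 9.911 CPM against 16.57 to 17.67 CPM, rgrb ENSSSAT00000200844 had 37.98 CPM against 43.59 to 44.52 CPM, and prvt ENSSSAT00000001133 had 3117 CPM against 3869 to 3971 CPM. In SPLL SW, 54196 transcripts had reads in replicate 3, where the others of its group had 68158 to 69054.

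The photoperiod difference in seawater minus that in freshwater, tested as an interaction in edgeR, passed an FDR of 0.05 for all 28 called transcripts at 0 in a whole freshwater group. The 28 were chosen by freshwater values that the interaction contains and had reads in every SW library, so their passing was nearly fixed in advance. Among named or followed transcripts with reads in both groups the difference was 0.9918 on the log2 scale for pcmtd2a (FDR 0.0159), 1.648 for hnrnpa1a (FDR 0.00555), 0.8596 for rsrp1 (FDR 0.0327), 1.721 for ENSSSAT00000228639 (FDR 0.00607) and 1.339 for gpn2 (FDR 0.0233). It was 1.39 for pwp1 (FDR 0.0135), 1.278 for ENSSSAT00000160401 (FDR 0.00966), 1.08 for tardbpb (FDR 0.00723), 1.26 for Cfap70 (FDR 0.0481) and 1.457 for brd2a (FDR 0.0198). It was 1.004 for chd2 (FDR 0.0251), 1.321 for the secreted neural protein TAFA3 (FDR 0.0292) and 1.352 for sdha, a subunit of respiratory complex II (FDR 0.0286). Only Fkbp5 ENSSSAT00000150909 of these had a negative difference, -4.002 (FDR 0.0292), and it was the only one of them higher in SPLL FW. These transcripts too were chosen by freshwater values that the interaction contains. The signs and the passing are therefore not independent of that choice.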

How the results depend on the processing

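The 42 freshwater calls became 1505 with DESeq2, 27 with a median of at least 5 CPM, 24 with library totals without TMM factors, 15 with no filter on low counts, 2 with the replicate block, 1 with limma-voom, and 0 with the 6 freshwater libraries alone or the newer quasi-likelihood method (smallest FDR 0.0613 and 0.0574). DESeq2 called all 42 and library totals called 24 of them, none of which had reads in both groups. Library totals moved the median log2 change by -0.17. Leaving out each library gave 34 to 274 calls. The interaction, 105 transcripts, was 292 without SPLL SW replicate 3. The labels give the libraries no pairing beyond a number. With 2 SPLL FW libraries the correlations of same-numbered deviations (r = 0.035 and -0.017) are tied by construction and cannot test one. The 24 alternatives include the legacy quasi-likelihood fit, which is the same as the fit reported. Over these alternatives, 0 of 2273 values of 95 followed transcripts changed sign. All 95 were chosen by an unadjusted p under 0.05 in the fit reported, so a change of sign was unlikely from the start. The 16 called among the 95 were called in 8 to 21 alternatives each. The causes were not tested. With 2 SPLL FW libraries, exact permutation cannot give a p under 0.133.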

Other observations

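Ion and water transport, a list not described above, held 31 tested transcripts, of which 0 were called by edgeR in freshwater. At an unadjusted p under 0.05, 9 were higher and 1 lower in SPLL FW than in SP-hold FW, and without the trend in transcript length these counts were 5 and 1. The median log2 change was 0.13, and 0.02 without the trend. Of 37 transcripts of histones, HMG proteins and nuclear chaperones, 5 were higher and 0 lower, with a median of 0.21, and 0.05 without the trend. Of 26 proteasome transcripts, 2 were higher and 1 lower, with a median of 0.28, and 0.07 without the trend.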
